A study of Homo sapiens with 6 samples.

Results

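The genes described here are the transcriptional feedback and output genes of the ERK pathway: the dual specificity phosphatases DUSP4, DUSP5 and DUSP6, the Sprouty genes SPRY1, SPRY2 and SPRY4, the SPRED genes SPRED1 and SPRED2, and the ETS transcription factors ETV4 and ETV5. They were chosen by name, and all 10 were found among the 31999 genes of the deposited table. RNA came from HEL, a human erythroleukemia cell line, transduced with a lentiviral small hairpin RNA against the receptor gene TMIGD2 (shTMIGD2, 3 libraries) or with a control hairpin (shCtrl, 3 libraries). Cells of both groups were grown in the same medium, and the labels name neither the hairpin construct nor a time after transduction. The value used for each gene is the authors' mean log2 CPM (fragments counted for the gene, scaled to the library total) over the libraries of the comparison. It holds 1 number per gene, so no spread between libraries, no level per group and no depth per library can be given. The table also holds the authors' own comparison of shTMIGD2 with shCtrl. Those columns were not used, so whether the feedback genes differed between the groups was not analysed here, and neither was the level of TMIGD2 in each group, which would check the labels. What follows is therefore the RNA level of these genes in HEL cells, taken over both groups together.

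ERK is the last kinase of the RAS, RAF and MEK cascade, which carries growth factor signals from the cell surface to the nucleus. Active ERK induces genes whose products switch the cascade off again: DUSP proteins remove the activating phosphates from ERK, while Sprouty and SPRED proteins act upstream, at RAS and RAF. ETV4 and ETV5 are transcription factors of the PEA3 group that are released from the repressor CIC when ERK is active. RNA of some of these genes is used as a readout of ERK output. In the study of TMIGD2, the ERK pathway was examined at the level of phosphorylated proteins, upstream of the transcription factor CREB. By Western blot, the study reported less phosphorylated ERK, p90RSK (a kinase downstream of ERK) and CREB in shTMIGD2 than in shCtrl HEL cells. The levels below are means over both groups, so they are not the level of either group alone.

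RNA of the feedback genes was at a moderate level, and 9 of the 10 had a mean of 1 CPM or more, a level that 43.8% of all genes listed reached. The median of the 10 genes was a mean log2 CPM of 4.52, against -0.97 over all genes listed. SPRY4 was the gene under 1 CPM, at 0.539 CPM. Because a longer transcript yields more fragments, levels of different genes are compared below as CPM per kilobase of the longest annotated transcript. On this scale the genes spanned 0.101 (SPRY4) to 17.2 (ETV5) CPM per kilobase, with a median of 7.66 (medians per kilobase were taken on the log2 scale). The median over the 23372 genes with a known transcript length was 1.11 CPM per kilobase. The median percentile of the feedback genes among these was 72.6. The authors' values have a lower bound, since 2234 genes, or 6.98% of those listed, lie within 0.01 of the lowest mean log2 CPM of -3.76. SPRY4, at -0.89, was the nearest of the 10 genes to that bound.

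**Figure D1:**
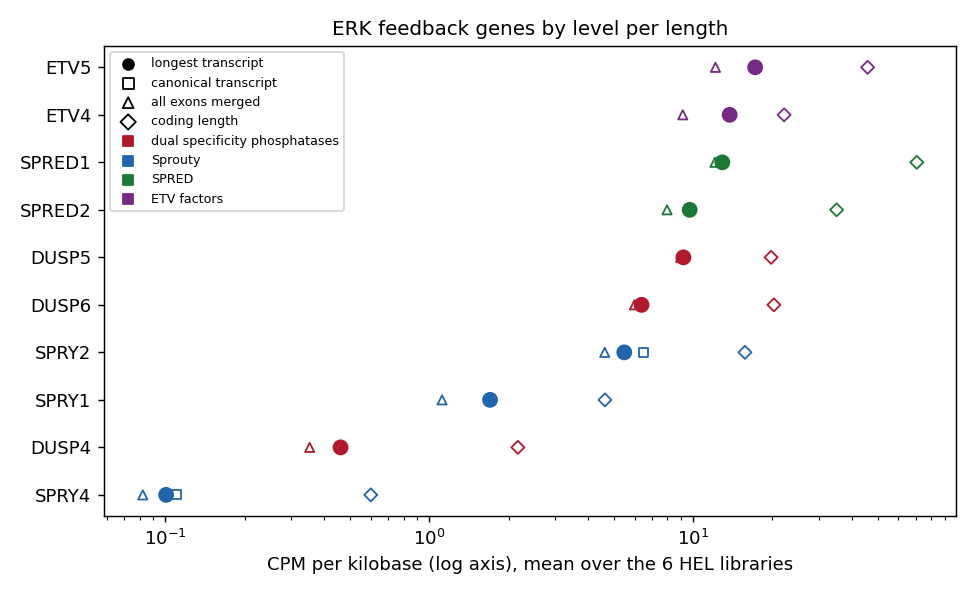
Level of each ERK feedback gene in CPM per kilobase (log axis), as the authors' mean over the 6 HEL libraries divided by 4 measures of gene length. Filled circles use the longest annotated transcript, and open squares, triangles and diamonds use the canonical transcript, all exons merged and the coding length. Circles cover the squares where both lengths are equal, and colours mark the gene families. ETV5, ETV4, SPRED1 and SPRED2 lie at the top by the longest transcript, and SPRY1, DUSP4 and SPRY4 are the lowest under each length.

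The ETV factors and the SPRED genes were the highest by transcript length. ETV5 (minus strand of chromosome 3, 186046314 to 186110318, GRCh38) had 70.2 CPM, or 17.2 CPM per kilobase, and lay at the percentile 84.1. ETV4 (minus strand of chromosome 17, 43527844 to 43579620) had 32.1 CPM, or 13.8 CPM per kilobase. ETV1, the other gene of the PEA3 group, was at 0.236 CPM per kilobase. ETV5 thus made up 55.1% of the group's summed level per kilobase, ETV4 44.1% and ETV1 0.755% (1.54% by coding length). ETV5 was 1.25 times ETV4 by the longest transcript and 2.07 times by coding length.

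SPRED1, whose product brings the RAS inactivator neurofibromin to the membrane, lies on the plus strand of chromosome 15 (38252836 to 38357249). It had the highest undivided level of the 10 genes, 93.8 CPM, which became 12.9 CPM per kilobase because its transcript is the longest of the 10, at 7270 bases. SPRED2 (minus strand of chromosome 2, 65310851 to 65432637) had 43.9 CPM, or 9.71 CPM per kilobase. SPRED3 was at 0.113 CPM per kilobase and held 0.495% of the family's level, beside 56.8% for SPRED1 and 42.7% for SPRED2. The ratio of SPRED1 to SPRED2 lay between 1.33 and 2.01 over the 4 measures of length. Neither this ratio nor that of the ETV factors can be set against a spread between libraries.

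Among the phosphatases, DUSP5 and DUSP6 had similar levels, and DUSP4 was far below both. DUSP5, a nuclear phosphatase that acts on ERK, lies on the plus strand of chromosome 10 (110497907 to 110511533) and had 22.8 CPM, or 9.19 CPM per kilobase. DUSP6, its cytoplasmic counterpart, lies on the minus strand of chromosome 12 (89347235 to 89352501) and had 23.1 CPM, or 6.38 CPM per kilobase. Which of the pair was higher depended on the length used: DUSP5 was 1.44 times DUSP6 by the longest transcript and 0.976 times by coding length. DUSP4, a nuclear phosphatase (minus strand of chromosome 8, 29333064 to 29350684), had 2.56 CPM, or 0.462 CPM per kilobase. DUSP6 was 13.8 times DUSP4 by the longest transcript, and between 9.33 and 17.0 times over the 4 lengths.

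DUSP7, a cytoplasmic ERK phosphatase that is no member of the set, was above both DUSP5 and DUSP6, at 18.8 CPM per kilobase. DUSP4, DUSP5, DUSP6, DUSP7 and DUSP9 were grouped here as ERK-directed phosphatases. Of their summed level, DUSP7 held 53.5%, DUSP5 26.2%, DUSP6 18.2%, DUSP4 1.32% (2.33% by coding length) and DUSP9 0.809%. DUSP1, at 7.27 CPM per kilobase, and DUSP2, at 6.71, were left out of this sum, so the shares hold for this grouping only. DUSP7 was above DUSP6 under each length, by 1.86 to 2.94 times. Of the phosphatases DUSP1, DUSP2, DUSP8, DUSP10 and DUSP16, which also act on stress-activated kinases or mainly on them, DUSP8 was the one under 1 CPM, with a mean log2 CPM of -2.36. The other 4 were between 0.91 (DUSP16) and 7.27 (DUSP1) CPM per kilobase.

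The Sprouty genes differed most among themselves. SPRY2 (minus strand of chromosome 13, 80335976 to 80341126) had 14.9 CPM, or 5.49 CPM per kilobase. SPRY1 (plus strand of chromosome 4, 123396795 to 123403760) had 4.44 CPM, or 1.70 CPM per kilobase. SPRY4 (minus strand of chromosome 5, 142310427 to 142326455) had 0.539 CPM, or 0.101 CPM per kilobase, at the percentile 21.7. With its level not divided by length, SPRY4 lay at the percentile 50.6 over all genes listed. SPRY2 thus held 75.2% of the family's level per kilobase, SPRY1 23.3%, SPRY4 1.38% and SPRY3 0.128%. By coding length SPRY4 held 2.85% and SPRY3 0.463%. SPRY2 was 54.5 times SPRY4 by the longest transcript and 26.2 times by coding length, the smallest ratio of the 4 lengths. SPRY3, with a mean log2 CPM of -3.57, was close to the lower bound of the table.

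**Figure D2:**
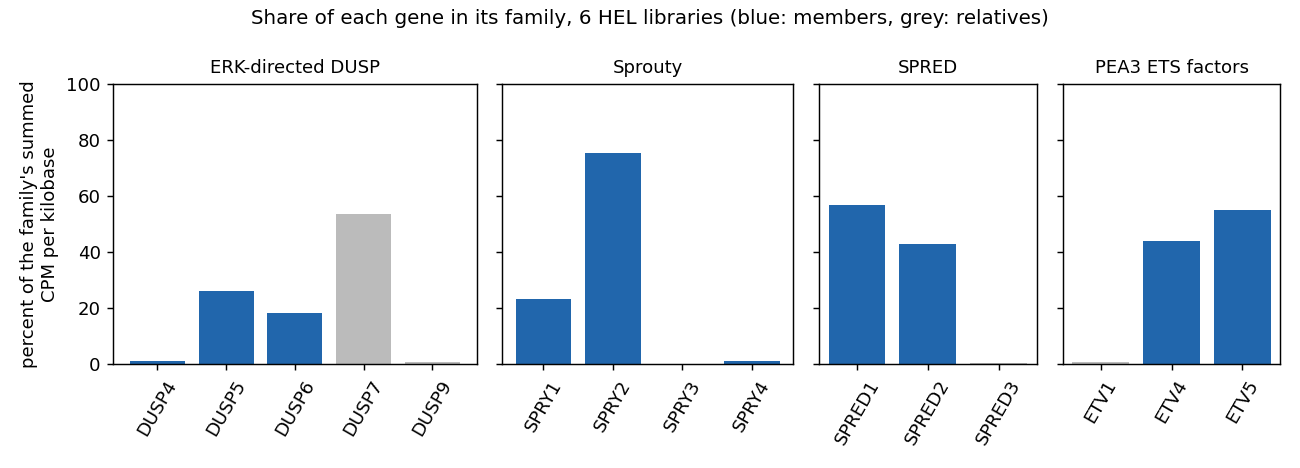
Share of each gene in the summed CPM per kilobase of its family (percent, axis from 0 to 100), from the authors' mean over the 6 HEL libraries and the longest transcript. Blue bars are the ERK feedback genes and grey bars their relatives. DUSP7 holds 53.5% of the phosphatases grouped as ERK-directed, which leave out DUSP1 and DUSP2. SPRY2 holds 75.2% of the Sprouty genes, and SPRED3 and ETV1 under 1% of their families.

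By the longest transcript, the genes of the cascade itself had a higher median level than its feedback genes. Of 24 genes from the adaptor GRB2 through RAS, RAF, MEK and ERK to the RSK kinases, CREB1 and CIC, 23 had 1 CPM or more. Their median was 14.3 CPM per kilobase, beside 7.66 for the feedback genes. These medians were not taken with the other lengths, so how far the difference depends on the length is not known. Cascade genes such as BRAF, at 2.82 CPM per kilobase, lay below the median of the feedback genes. The highest was RPS6KA1, which encodes a p90RSK kinase, at 87.1 CPM per kilobase, and the lowest RPS6KA2, another RSK gene, at 0.0219. Of 9 other genes used as ERK output, 6 had 1 CPM or more, and their median was 2.50 CPM per kilobase. They ran from EPHA4, a receptor kinase, at 0.0182 to MYC, a growth-promoting transcription factor, at 181.2 CPM per kilobase. EPHA4 and RPS6KA2, with a mean log2 CPM of -3.11 and -2.93, lay toward the lower bound of -3.76. This limits how far their levels per kilobase can be read. The ranges of these lists overlapped that of the feedback genes, and the differences between medians were not tested, since genes are not replicates.

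**Figure D3:**
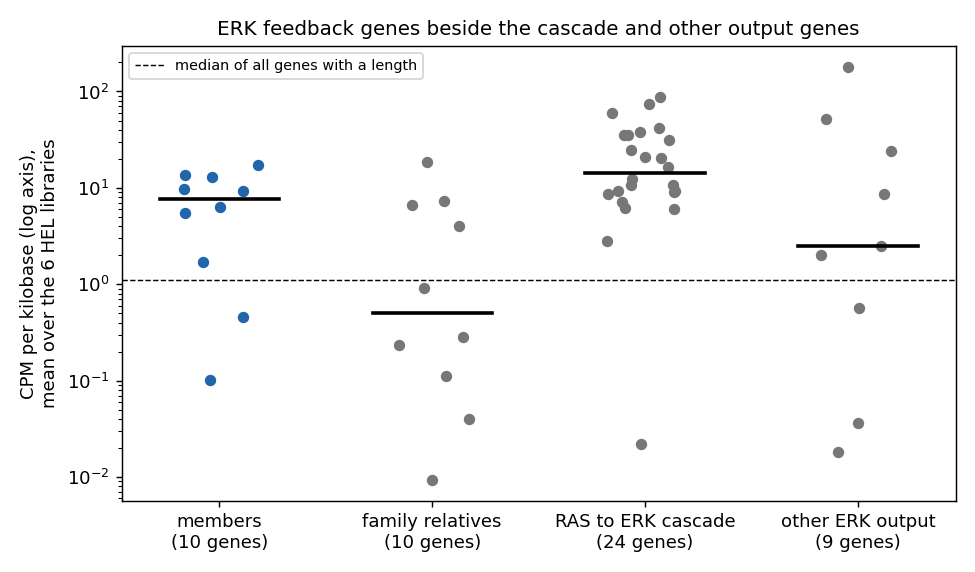
CPM per kilobase of the longest transcript (log axis) for the 10 ERK feedback genes, their 10 family relatives, 24 genes of the cascade and 9 other ERK output genes, as the authors' mean over the 6 HEL libraries. Each point is a gene, the short line is the list's median and the dashed line the median of all genes with a length, 1.11. The medians are 7.66, 0.508, 14.3 and 2.50, and the lists overlap.

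The labelled cell line was checked against marker genes. Of 10 erythroid markers 9 had 1 CPM or more, the exception being AHSP with a mean log2 CPM of -3.18, and all 6 megakaryocyte markers did. Of 7 epithelial and fibroblast markers none of the 5 listed reached 1 CPM. Of the lymphoid markers, CD3D, CD3E and MS4A1 were not listed, and CD2, CD79A and CD79B had a mean log2 CPM of 2.95, 2.32 and 1.46.

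Overlap with other genes touched DUSP6 most. No stretch of 50 bases was shared between any of the 10 genes in the annotated transcripts, so near-identical copies within the families were not seen at that length. An lncRNA annotated on the opposite strand shared 1105 of the 3859 exonic bases of DUSP6, or 28.6%, and was not listed under its identifier. The libraries were made with a strand-specific kit, but the strand setting of the counting is not given in the sources used here. ETV4 shared 68 exonic bases with DHX8 on the opposite strand, and ETV5 shared 164 with DGKG on the same strand, or 1.94% and 2.84% of their exonic bases. Of the 7738 distinct stretches of 50 bases in SPRED1, 136 occurred in transcripts of other genes, most often CCAR1. The effect of these overlaps on the levels was not tested.

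The annotated 3′ untranslated regions were compared because RNAs of fast feedback genes are known to carry AU-rich elements. The pentamer ATTTA occurred in 8 of the 10 genes, and in 70.9% of 16353 genes with a 3′ untranslated region of at least 50 bases. SPRED1 had the most, 24 in 5585 bases, and DUSP5 and ETV4 had none. The median density was 1.80 per kilobase in the feedback genes and 1.61 over all genes. The nonamer ATTTATTTA occurred in none of the 10 genes and in 7.58% of all genes.

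The promoters were searched for the sites of factors that ERK signalling reaches, and the matches of the short CREB motif are shown because CREB is the factor the study follows. RefSeq promoters (GRCh38.p14) from 250 bases before to 50 after the start were at hand for 6 of the genes, with 10 promoters in all: DUSP6, SPRY1, SPRY2, SPRY4, SPRED1 and SPRED2. The short motif TGACG, searched on both strands as were all motifs, occurred in 3 of the 10 promoters, 1 each of SPRED2, SPRY2 and SPRY4, and in 24.5% of all 35116 promoters. The matches with 10 bases on either side, 5′ to 3′ on the strand of the gene and with the motif in capitals (for SPRED2 its reverse complement CGTCA), were at chr2:65432555-65432579, chr13:80341302-80341326 and chr5:142324301-142324325, all genes being on the minus strand. They began 30 bases after the start in SPRED2, and 190 and 68 bases before it in SPRY2 and SPRY4.
SPRED2: gctgggaagaCGTCAtcgcttccgc
SPRY2: cggatccacaTGACGccatttactg
SPRY4: ttcggagccgTGACGgactgaattc

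SPRY4, the lowest of the 10 genes, and SPRED2, the fourth highest, thus both held the short motif. The full CREB site TGACGTCA, which contains it, occurred in none of the 10 promoters and in 1.85% of all promoters. The AP-1 site TGANTCA occurred in 1 of the 10, a promoter of SPRED2, and in 7.71% of all promoters. The ETS site CCGGAAG, which factors such as ETV4 and ETV5 can bind, occurred in 1 of the 10, a promoter of SPRY1, and in 10.3% of all promoters. The CIC site was searched only as the exact letters TGAATGAA, and variants of it were not searched. These letters occurred in none of the 10 promoters and in 1.66% of all promoters. No promoter of ETV4 or ETV5, the genes described above as released from CIC, was at hand. The search therefore could not show whether they hold the site. Promoters of 1 gene are not independent. These matches describe the letters in the windows and say nothing of binding.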

How the data were processed

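Poly(A) RNA from 6 HEL libraries was sequenced. Per the study's methods and the submitters' processing notes, the authors aligned reads to hg38 with STAR 2.6.1b and counted fragments per gene with HTSeq 0.6.1 on a refSeq annotation. The authors' deposited table gives, for 31999 genes, a mean log2 CPM over the libraries, and 4 columns of the authors' comparison of shTMIGD2 with shCtrl (log2 fold change, F, p and adjusted p) that were not used. The study's methods name DESeq2 by the authors, on genes averaging at least 1 read in either group. The column names are those of edgeR by the authors, whose version, normalization and prior count are not given in the sources used here, nor whether that filter was applied to this table. Depth per library is therefore unknown, and no test was made.

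Levels were divided by the longest transcript in GENCODE 44 (GRCh38). Of the gene names, 22805 matched by symbol and 567 by a synonym; 24 names had been turned into dates and were left unmatched. Percentiles, family shares, exonic overlaps, shared stretches of 50 bases and motifs were computed with Python 3.11.15. The percentile, the motif search and the merged exon length were tested on made-up inputs with known answers. The family shares, the overlaps between genes and the shared stretches were not tested in that way. Named genes are the members, their family relatives, and the extremes of each list, plus genes a result turns on. Members and lists were chosen with earlier results of these data known.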

Additional observations from a re-analysis of the deposited data

How the results depend on the processing

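No paired analysis was possible because the table used here gives 1 mean per gene and no value per library. For the same reason no library could be left out. The median percentile of the feedback genes, 72.6 by level per kilobase, was 55.2 over the 9 of them at 1 CPM or above when set only against genes at that level, 50.5 over all 10 against the same genes, and 63.9 among genes with a RefSeq protein. With levels not divided by length it was 70.1 over the 23372 genes with a length and 77.9 over all genes listed. These settings, the value over all 10, the canonical transcript, the merged exons and other lengths for the family shares were chosen after seeing the data. The median over the 10 genes, a mean log2 CPM of 4.52, became 4.95 when the log2 of the mean CPM over these genes was taken instead. How the libraries were averaged could not be varied. With a threshold of 5 CPM, 7 of the 10 genes passed, against 9 at 1 CPM. Among all genes listed, a gene just above that threshold (CD79A, at 5.01 CPM) lay at the percentile 66.9. Over the 4 lengths, 3 genes (SPRY1, DUSP4 and SPRY4, ranks 8, 9 and 10) kept their rank and no gene moved by more than 2. By coding length SPRED1 ranked 1 and ETV5 ranked 2. The shares of DUSP4, ETV1, SPRY3 and SPRY4 in their families moved by over 1.5 times by coding length, and those of the 11 other genes by less under each length. Depth per library is unknown, so the levels it limits cannot be named. With the promoter window shortened to 100 bases before the start, the short CREB motif occurred in 15.6% of all promoters, against 24.5%, and in 2 of the 10 promoters of the feedback genes, against 3.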
